A study of Chlamydomonas reinhardtii with 18 samples.

Results

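The early effect of nitrite on the green alga *Chlamydomonas reinhardtii* was read from 12 of the 18 RNA libraries of the study, 6 from cultures given nitrite and 6 from control cultures. The members are every library labelled 15 min or 3 h, and each arm holds 3 libraries of each time. The nitrite cultures had 10 mM nitrite added in the dark, and the control cultures had none added and were otherwise treated alike. All cells were of strain 6145c and were kept in darkness at 25 °C, so darkness is common to both arms. Each arm was grown in 3 flasks, and the number in a library's title was taken as its flask. The 6 libraries of an arm therefore come from 3 cultures that were sampled at both times, and they are not 6 independent cultures. The comparison asks what differs between the arms over both early times together, whichever of the times a library carries.

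Plants and green algae reduce nitrate to nitrite in the cytosol and nitrite to ammonium in the plastid, where glutamine synthetase and glutamate synthase bind it into amino acids. Nitrite can also be turned into nitric oxide, a signal and a toxic radical. Nitric oxide in turn can be reduced to nitrous oxide by a cytochrome P450 or, in the light, by flavodiiron proteins. Truncated hemoglobins bind and oxidise nitric oxide. In the dark, cells of this alga that use acetate depend on respiration and on the glyoxylate cycle, which makes sugar precursors from acetate. The study is titled for the biosynthesis of nitrous oxide.

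Expression was measured by sequencing the polyadenylated RNA, and each deposited value is the number of reads assigned to a gene. Gene totals ran from 6695500 to 8469882 reads per library. Levels are given as CPM, reads of a gene relative to the size of its library, with library sizes scaled by TMM, a trimmed mean of ratios between libraries. Some libraries stood apart. On the first principal component, with 44% of the variance, the libraries labelled nitrite 15 min number 1 and number 3 lay at -39.2 each and that labelled nitrite 3 h number 2 at -42.1. The library labelled nitrite 15 min number 2 lay at 14.5, beside nitrite 3 h number 1 at 15.7 and number 3 at 17.3. The 2 libraries of nitrite flask 2 thus each sat with the other labelled time. Both belong to 1 flask and 1 arm, so the pooled comparison holds the same counts in either case. The library labelled control 3 h number 3 lay alone at 62.7, with 36.5% of its reads aligned to more than 1 place, against 16.7% to 21.1% in the nitrite libraries and 17.7% to 19.4% in the other control libraries.

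More genes were called higher than lower with nitrite over the first 3 h, and most of the shifts were under 2-fold. Of 12738 genes tested, 135 rose and 73 fell at an adjusted p under 0.05 in edgeR's quasi-likelihood test (2437 had an unadjusted p under 0.05). These 208 genes are 1.63% of those tested, with 1.06% higher and 0.573% lower. The median log2 fold change was 0.82 among the genes that rose and -0.78 among those that fell, against -0.03 over all genes tested. At least 2-fold changes were found for 35 of the 135 and 14 of the 73. The called genes reached from a mean level of 0.61 to 8.06 log2 CPM among rises and from 0.99 to 7.52 among falls. In 148 of the 208 (71.2%) the 6 nitrite libraries did not overlap the 6 control libraries, as in 2.79% of all tested genes (1.58% higher and 1.22% lower with nitrite). The 208 were called from these same libraries, which favours a lack of overlap, so the higher share is no separate result.

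**Figure D1:**
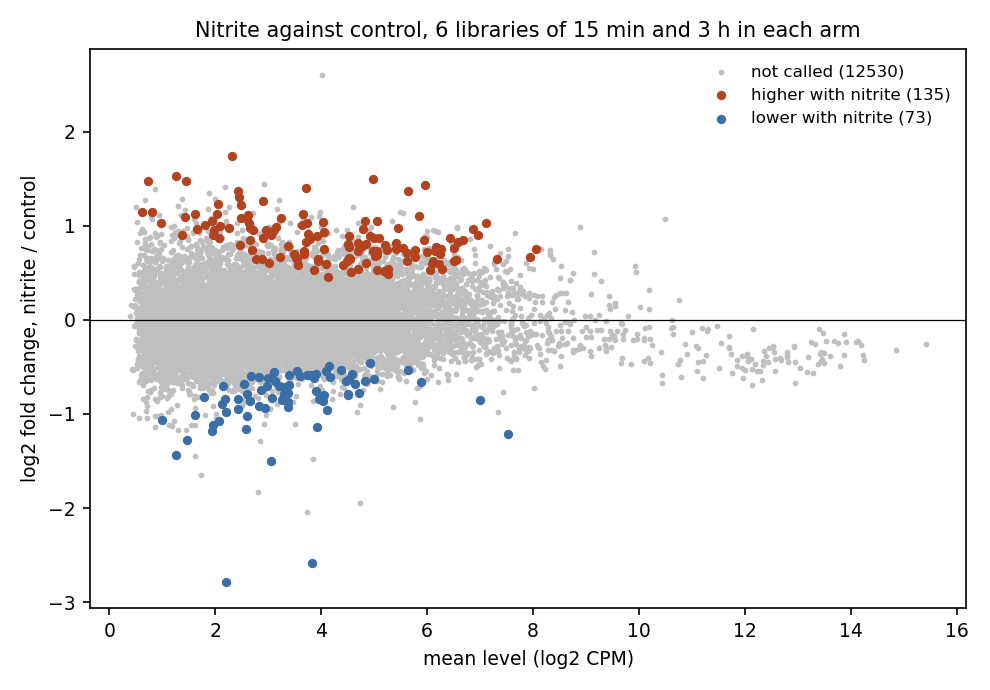
Log2 fold change of nitrite over control (vertical) against mean level in log2 CPM (horizontal), 1 point per gene tested. The 135 genes that rose and the 73 that fell lie at low and middle levels, with the pair of strongest falls near -2.8 and -2.6 set apart from the others.

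The number of genes called depended on how the repeated sampling of a flask was handled. Time was left out of the model, so its spread counted as noise. With the reads of a flask summed over both times, so that 3 nitrite flasks stood against 3 control flasks, 826 genes rose (5.96%) and 468 fell (3.38%), together 9.34% of 13851 tested, and all 208 genes were among them. With time as a term, 343 genes were called, again with all 208. Each of the 208 kept its direction in every other setting in which it was tested. Those settings refit the libraries that chose the 208, or part of them, so this match was favoured in advance and supports nothing. Leaving out single libraries moved the count of 208 to 294 without nitrite 15 min number 1, 40 without nitrite 3 h number 1, 29 without nitrite 15 min number 2, 19 without nitrite 3 h number 2, 30 without nitrite 15 min number 3 and 77 without nitrite 3 h number 3. The same counts were 32, 58 and 87 without control 15 min number 1, 2 and 3, and 72, 18 and 89 without control 3 h number 1, 2 and 3. Rises did not outnumber falls in every setting: 129 rose and 165 fell without nitrite 15 min number 1, 14 rose and 18 fell without nitrite flask 1, and 2 rose and 4 fell without control flask 2. Without scaling, which moved the median log2 fold change of all genes to 0.10, 5 genes were called. Without nitrite 15 min number 2, nitrite 3 h number 2 and control 3 h number 3, the 3 libraries that stood apart, the count was 5, and it was 695 when time was then added to the model. Whether these libraries account for the difference was not tested.

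The genes named first are the 2 largest rises and the 2 largest falls among called genes without overlap between the arms. The deposited tables pair nuclear identifiers with no gene names, and the RefSeq table holds none for them, so these genes are given by identifier and position in assembly Chlamydomonas_reinhardtii_v5.5. Positions rest on the release number 5.5 in the identifiers.

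The largest rise was that of Cre03.g211297 (chromosome 3, 9100100 to 9103105). Its 6 nitrite libraries ran from 3.88 to 11.3 CPM with a median of 6.94, and its 6 control libraries from 1.71 to 2.84 CPM with a median of 1.96. Every nitrite library lay above every control library, and the log2 difference was 1.74 (SE 0.29, edgeR adjusted p = 0.0141). Within the nitrite arm the libraries fell into a higher and a lower set. Nitrite 15 min number 1, 15 min number 3 and 3 h number 2 stood at 9.06, 9.10 and 11.3 CPM, and 3 h number 1, 3 h number 3 and 15 min number 2 at 4.35, 3.88 and 4.82 CPM. This is the same division of flask 2 as on the first principal component. Summed by flask, the level was 6.72, 8.45 and 6.94 CPM in the nitrite flasks and 2.28, 2.03 and 1.99 CPM in the control flasks. The call was lost without nitrite flask 2 (adjusted p = 0.0742), without control flask 2 (0.132), without scaling (0.0638), without the 3 libraries that stood apart (0.12), and at either time alone. The models on both sides, 2 and 202 bases away, lay at 0.67 and 0.75 on the log2 scale and were not called, and reads near the closer border may be assigned to either model.

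The next rise was that of Cre03.g155350 (chromosome 3, 1927266 to 1932452), with nitrite libraries from 36.1 to 62.0 CPM (median 44.2) and control libraries from 12.3 to 20 CPM (median 16.5). The arms did not overlap, and the difference of 1.5 on the log2 scale was 2.82-fold, with an SE of 0.16 and an edgeR adjusted p of 0.000197. The call was lost with the 15 min libraries alone (0.0576) and with the 3 h libraries alone (0.0636). The models on either side of it, 355 and 19 bases away, were not called, at -0.02 and -0.32 on the log2 scale.

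Both of the strongest falls lie next to each other on chromosome 5. Cre05.g238450 (3012894 to 3018335) had nitrite libraries from 0.471 to 1.81 CPM and control libraries from 4.23 to 11.9 CPM. It fell by 2.79 (log2, SE 0.30, edgeR adjusted p = 0.000197), with 58 reads in all 6 nitrite libraries and 344 in the control libraries. Cre05.g238400 (3008696 to 3012405), which ends 488 bases before it, had nitrite libraries from 1.98 to 5.80 CPM and control libraries from 14.6 to 37.6 CPM. It fell by 2.59 (SE 0.27, edgeR adjusted p = 0.000197), with 208 reads against 1050. The models on the outer sides of the pair were not called and differed by 0.16 and 0.00 on the log2 scale. In the control arm the 3 libraries of 3 h held more of both transcripts than the 3 of 15 min. Cre05.g238400 stood there at 28.5 to 37.6 CPM, against 14.6 to 20.2 CPM in the controls of 15 min, while the nitrite libraries of both times stayed at or under 5.80 CPM.

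The lowest p-value of the comparison belonged to Cre12.g517700 (chromosome 12, 4072806 to 4077413), and the fifth lowest to Cre08.g362700 (chromosome 8, 1143611 to 1147255). Both were singled out after their values were seen. Cre12.g517700 had nitrite libraries from 74.8 to 102 CPM and control libraries from 28.4 to 38.9 CPM, a log2 difference of 1.43 (SE 0.13, edgeR adjusted p = 8.5e-05). The nitrite libraries of flask 1, 2 and 3 summed to 89.2, 93.5 and 89.5 CPM, and the control flasks to 32.0, 34.8 and 34.8 CPM. Cre08.g362700 had nitrite libraries from 3.18 to 7.61 CPM and control libraries from 10.8 to 14.8 CPM, and it fell by 1.5 (SE 0.20, edgeR adjusted p = 0.00321). The arms did not overlap for either gene. The call of Cre08.g362700 was lost without nitrite flask 2 (adjusted p = 0.0742), without scaling (0.0638), without the 3 libraries that stood apart (0.0973) and with the 15 min libraries alone (0.397).

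With any 1 of the 12 libraries left out, 16 of the 208 genes kept their calls. With any 1 of the 6 flasks left out, 4 did so, namely Cre12.g517700, Cre03.g155350, Cre05.g238450 and Cre05.g238400. These 4 also made up the calls common to all 18 of these fits.

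**Figure D2:**
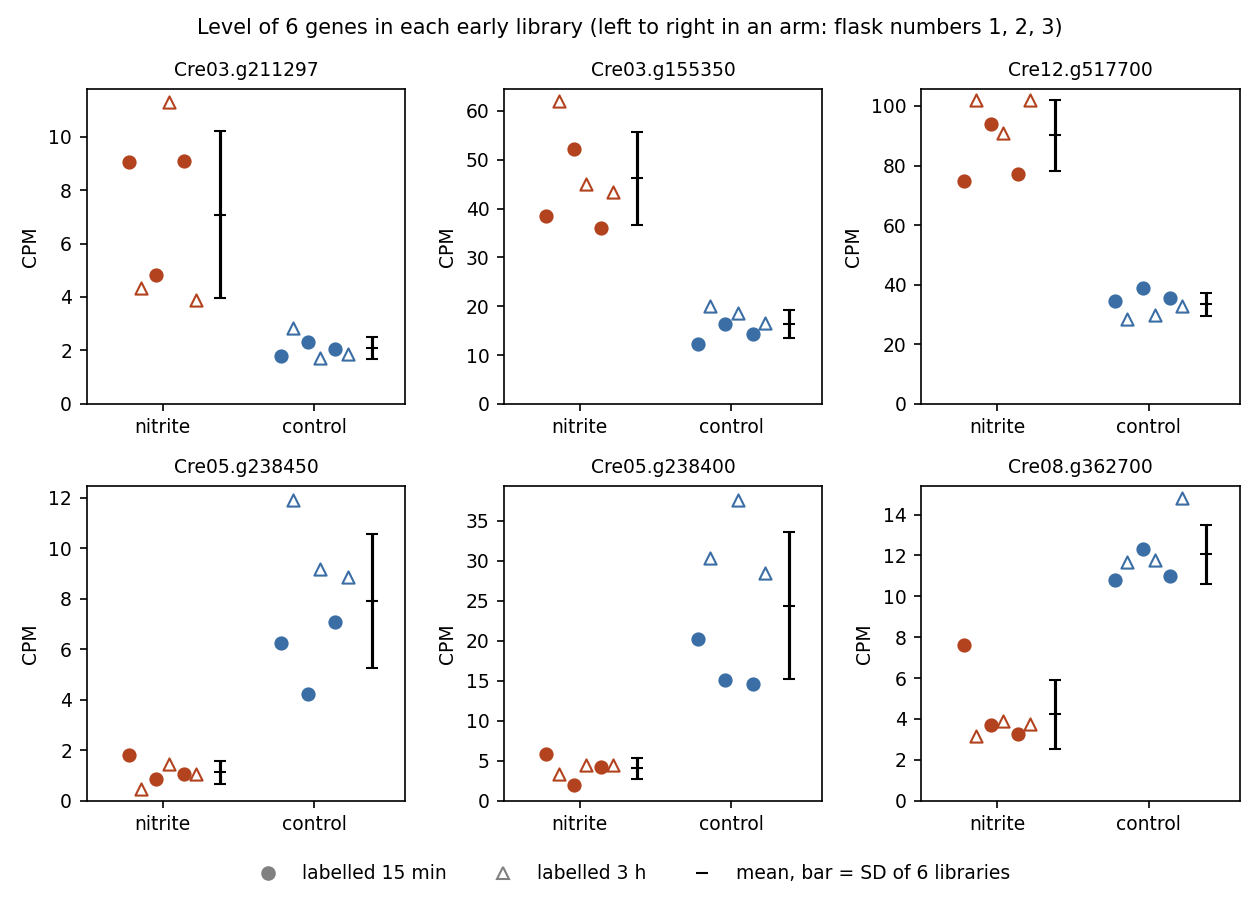
CPM (vertical, linear, from 0) of 6 genes in each of the 12 libraries, nitrite left and control right, with flask numbers 1 to 3 running left to right, circles for libraries labelled 15 min and triangles for 3 h. Bars give the mean and SD of the 6 libraries of an arm, and no nitrite library overlaps a control library in any panel.

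Called genes were scattered over the genome. Among called genes there were 7 pairs of adjacent models, 4 in which both rose and 3 in which both fell. The chromosome 5 pair is 1 of them. Another falling pair is Cre07.g321850 and Cre07.g321900 on chromosome 7, 100 bases apart, at -1.02 and -1.18 on the log2 scale. In a rising pair on chromosome 4, Cre04.g215600 and Cre04.g215550 differed by 1.11 and 0.58, and only 7 bases lie between the models. Reads near that border are open to assignment to either gene. These pairs were chosen for their position after the calls were made. Adjacent pairs among all tested genes were not counted, so the 7 cannot be read as clustering. The called genes made up 0.787% of the tested genes of chromosome 17 and 2.46% of those of chromosome 7, with the other chromosomes between.

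Groups of loci were described with 14 lists entered from prior knowledge of the alga, and the deposited tables cannot check that assignment. They hold 116 loci, 115 of which are in the tables and 96 of which were tested. Over libraries, 1 locus of the 96 passed, which is close to the 1.63% of all genes. Over flask sums, 22 of 101 tested loci passed, beside 9.34% of all genes. That share depended on level. Of 8790 genes with a mean level under 4 log2 CPM, 366 rose and 266 fell over flask sums. Of 3700 genes at 4 to 8 log2 CPM, 432 rose and 196 fell. The lists were not compared with genes of like level. With unscaled flask sums 1 list locus was called, Cre05.g232150, and 0.152% of all genes. List counts over flask sums with a flask left out moved with the count of all genes, which was 3.55%, 1.28% and 4.1% of those tested without nitrite flask 1, 2 and 3, and 23.0%, 1.75% and 13.6% without control flask 1, 2 and 3.

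No tested locus of the lists closest to nitrous oxide passed over the 12 libraries with 1 mean per arm. Without the 3 libraries that stood apart, and with time in the model, 1 locus of each of the 2 lists fell, Cre09.g410800 (adjusted p = 0.0155) and Cre14.g615350 (0.0151), where 5.38% of all genes were called. Of the list entered for the uptake and reduction of nitrate and nitrite, 2 of 7 loci had enough reads to test, and the others had 3 to 80 reads over the 12 libraries. Cre09.g410800 (chromosome 9, 6986662 to 6990589) had nitrite libraries from 0.629 to 2.97 CPM and control libraries from 1.15 to 6.93 CPM. It differed by -1.11 in log2 (SE 0.44, edgeR adjusted p = 0.188). The arms overlapped over libraries but not over flasks, which summed to 1.92, 1.73 and 1.73 CPM with nitrite and 4.57, 2.87 and 3.69 CPM without. Over flask sums it fell (edgeR adjusted p = 0.00883). That call rests on the same sums, so the lack of overlap between flasks is no separate result. Cre01.g012050 (chromosome 1, 2203358 to 2207939) had nitrite libraries from 2.47 to 4.11 CPM and control libraries from 2.95 to 8.97 CPM, at -0.56 (SE 0.25, edgeR adjusted p = 0.237). Cre09.g396000 had too few reads for the test over the 12 libraries, with 63 in the nitrite libraries and 17 in the controls. Its flasks held 1.14, 1.44 and 1.14 CPM with nitrite and 0.355, 0.561 and 0.199 CPM without, and over flask sums it rose by 1.66 (SE 0.37, edgeR adjusted p = 0.0137). It was also called with all 18 libraries in the fit (0.0381), and not without the filter on low counts (0.0993). Over flask sums the list had 1 rise and 1 fall among 3 tested loci, 0 calls without nitrite flask 2, and 1 rise and 3 falls among 4 tested loci without control flask 3.

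All 5 loci of the list for nitric oxide were tested, which holds entries for a P450 nitric oxide reductase, truncated hemoglobins and flavodiiron proteins. Over libraries 0 of 5 passed, and their log2 fold changes ran from -0.47 to 0.27. Cre01.g007950 (chromosome 1, 1533342 to 1539057) had nitrite libraries from 495 to 760 CPM and control libraries from 411 to 606 CPM, a difference of 0.27 (SE 0.17, edgeR adjusted p = 0.399). Cre14.g615400 (chromosome 14, 1130388 to 1132606) averaged 168 ± 29.7 CPM with nitrite and 140 ± 36.8 CPM without (SD, 6 libraries each), and differed by 0.26 (SE 0.18). Its neighbour in the list, Cre14.g615350 (1125856 to 1128338), averaged 27.4 ± 18.1 CPM with nitrite and 38.2 ± 21.1 CPM without, at -0.47 (SE 0.47). Over flasks it summed to 29.4, 26.6 and 24.0 CPM with nitrite and 33.9, 38.6 and 33.8 CPM without, and it fell by 0.41 (SE 0.12, edgeR adjusted p = 0.0449), the 1 call of the list over flask sums. It was not called over flask sums without control flask 2 or any 1 nitrite flask. Cre12.g531900 averaged 4.64 ± 2.74 CPM with nitrite and 6.02 ± 3.59 CPM without, and Cre16.g691800 35.5 ± 3.08 CPM and 33.9 ± 6.64 CPM. Neither was called under any of the settings tried.

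The glyoxylate and acetate list, entered for enzymes that carry acetate into the glyoxylate cycle and on to sugar precursors, lay to the nitrite side as a whole. Its 6 tested loci had log2 fold changes from 0.40 to 0.61 over libraries with a median of 0.51, and 0 of 6 passed. Over flask sums 4 of 6 rose, with a median of 0.50 against -0.01 over all genes. Cre03.g144807 had flask sums of 177, 183 and 206 CPM with nitrite and 123, 136 and 116 CPM without, and rose by 0.59 (SE 0.12, edgeR adjusted p = 0.00803). Cre06.g282800 had 1130, 1130 and 1270 CPM with nitrite and 789, 854 and 766 CPM without, a rise of 0.55 (SE 0.16, edgeR adjusted p = 0.0446). Cre03.g149100 rose by 0.52 and Cre10.g423250 by 0.39. No nitrite flask overlapped a control flask for these 4 loci. They were called from these same flask sums, which favours a lack of overlap, so this is no separate result. The share of all genes without overlap between flasks was not counted. Read against the shares of all genes above, the count was 6 of 6 without control flask 1, 4 without control flask 3, 1 without control flask 2 or nitrite flask 1, and 0 without nitrite flask 2 or nitrite flask 3. Without the 3 libraries that stood apart, and with time in the model, it was 4 of 6.

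In the ammonium and glutamate list, entered for glutamine synthetase, glutamate synthase and glutamate dehydrogenase, 1 of 7 loci moved clearly. Cre05.g232150 (chromosome 5, 592684 to 598768) had flask sums of 664, 646 and 637 CPM with nitrite and 324, 346 and 316 CPM without. It rose by 0.98 over flask sums (SE 0.13, edgeR adjusted p = 0.00121) and kept this call with any 1 flask left out and without scaling. Over libraries its nitrite values ran from 341 to 986 CPM and its control values from 222 to 430 CPM, and the adjusted p was 0.096. The other 6 loci had log2 fold changes between -0.28 and 0.22 over flask sums.

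Tubulins, the subunits of microtubules and so of the alga's flagella, lay to the control side. All 4 loci of the list were lower with nitrite, at -0.77 to -0.43 on the log2 scale over libraries, where 0 of 4 passed. Over flask sums 4 of 4 fell. Cre12.g549550 summed to 158, 121 and 116 CPM in the nitrite flasks and 206, 212 and 229 CPM in the control flasks, and fell by 0.71 (SE 0.13, edgeR adjusted p = 0.00621). Among control libraries its highest value, 271 CPM, was in control 3 h number 3, the library that stood alone. Without that flask 4 of 4 loci still fell, and without control flask 1 also 4 of 4. The count was 1 without control flask 2, nitrite flask 1 or nitrite flask 3, and 0 without nitrite flask 2, in fits that called 1.28% to 4.1% of all genes, against 23.0% and 13.6% in the fits without control flask 1 and 3. Without the 3 libraries that stood apart, and with time in the model, it was 1 of 4.

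Chaperones, which assist protein folding, were lower with nitrite where they passed. Cre08.g372100 (chromosome 8, 2518227 to 2522077) was the 1 list member called over libraries. Its nitrite libraries ran from 62.8 to 123 CPM and its control libraries from 126 to 232 CPM, without overlap, and it fell by 0.85 (SE 0.20, edgeR adjusted p = 0.0484). That call stood at the threshold and was lost without any 1 library but nitrite 15 min number 1 (adjusted p 0.0548 to 0.0955). Over flask sums it fell by 0.84 (adjusted p = 0.00290), and so did Cre02.g080700 by 0.60, Cre09.g386750 by 0.67 and Cre12.g514850 by 0.57, which made 4 of 15 loci. The 15 had a median of -0.24. The count of falls was 7 without control flask 3, 4 without control flask 1, 3 without nitrite flask 1 or nitrite flask 3, and 1 without nitrite flask 2 or control flask 2. Without the 3 libraries that stood apart, and with time in the model, it was 3.

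The other 8 lists had 6 calls over flask sums, a share of their tested loci close to the 9.34% of all genes. Of the oxidative stress list, 1 of 9 rose and 1 fell over flask sums. Cre16.g688550 stood at 33.0, 27.4 and 26.6 CPM in the nitrite flasks and 12.3, 20.6 and 22.1 CPM in the control flasks, and Cre10.g436050 fell by 0.45. Of the carbon dioxide list, entered for carbonic anhydrases and inorganic carbon transporters, 1 of 5 tested loci rose, Cre04.g223100 by 1.08 (SE 0.24). It summed to 9.05, 6.04 and 5.08 CPM with nitrite and 3.91, 3.15 and 2.09 CPM without. Of the sulfur assimilation list 1 of 4 rose, Cre10.g445000 by 0.44, and of the fermentation list 1 of 6, Cre06.g296750 by 0.47. Calvin cycle loci had 1 fall among 14, Cre02.g120100 by 0.45, and 13 of 14 lay below 0 with a median of -0.18. With unscaled flask sums 10 of these 14 lay below 0, with a median of -0.05. Over libraries, 46.9% of all genes at 4 to 8 log2 CPM lay below 0, and 94.7% of those at 10 or more. The light-harvesting list had 0 calls among 20 loci (median -0.08), the alternative oxidase list 0 of 2 and the photoprotection list 0 of 1. Each of the calls in this paragraph was lost over flask sums without at least 1 flask.

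**Figure D3:**
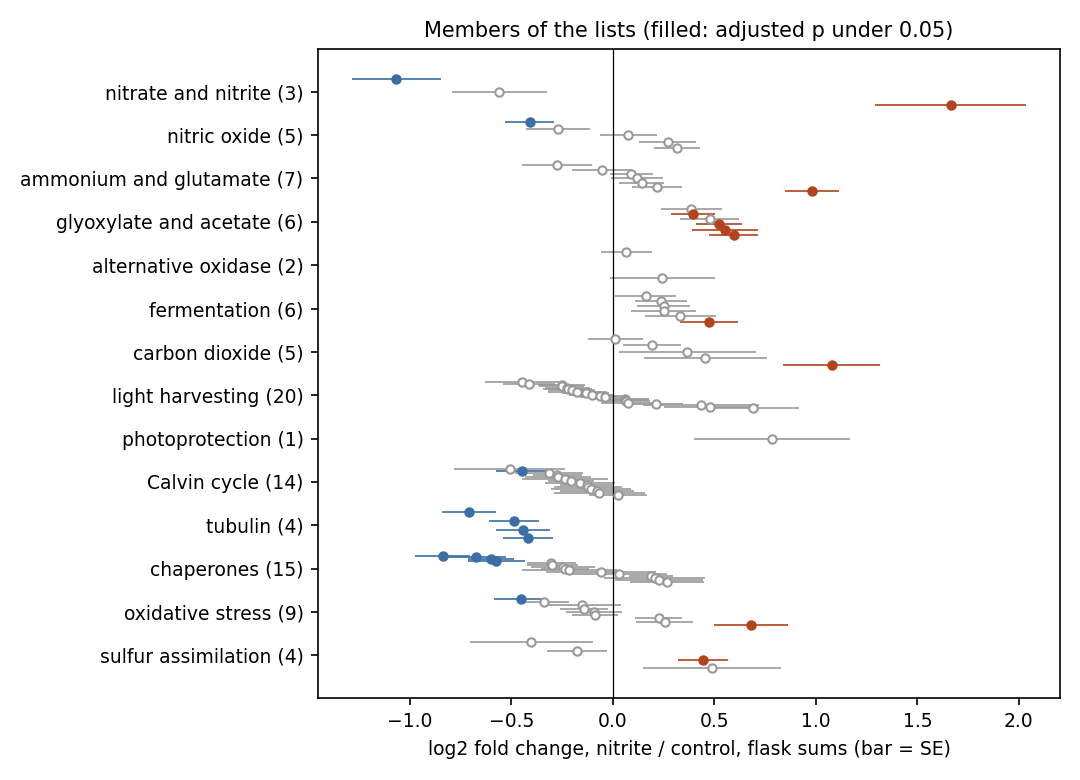
Log2 fold change of nitrite over control from flask sums (horizontal, bars SE) for the 101 tested loci of the 14 lists, with the number tested beside each name. Filled points passed at an adjusted p under 0.05, and the filled points of the glyoxylate and acetate list lie right of 0 and those of tubulin and chaperones left of 0.

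Of the 25 organelle features named in the tables, the mitochondrial cob, nad4 and nad5, which encode parts of the respiratory chain, had enough reads to test, and 0 of 3 passed. They stood at 29.4 to 45.9, 169 to 220 and 3.03 to 9.88 CPM in the nitrite libraries. In the control libraries other than 3 h number 3 they reached 74.4, 416 and 10.4 CPM, and in that library 258, 586 and 106 CPM. The part of that library's high organelle values in the other results was not tested.

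The called genes were also read at each labelled time. These values rest on the labels of nitrite 15 min number 2 and nitrite 3 h number 2, each of which sat with the other time, and would differ if those labels were exchanged. All 135 genes that rose and all 73 that fell had the same sign at 15 min and at 3 h, a match that their choice by the pooled effect of the same libraries favours and that supports nothing. The median log2 fold change of the rises was 0.69 at 15 min and 0.97 at 3 h, and that of the falls was -0.65 at 15 min and -0.89 at 3 h. The effect was larger at 3 h than at 15 min in 110 of the 135 and in 58 of the 73. The same count was not made over all genes tested, so it cannot be read as a trait of the called genes. No single gene differed between the times past the edgeR test of the difference itself, which called 0 of 13295 genes (653 at an unadjusted p under 0.05, and 0 by DESeq2). Without the 3 libraries that stood apart, that test called 38 genes, 4 toward higher and 34 toward lower values at 3 h. Alone, the 6 libraries of 15 min gave 0 calls in edgeR (1061 at an unadjusted p under 0.05) and the 6 of 3 h gave 5.

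**Figure D4:**
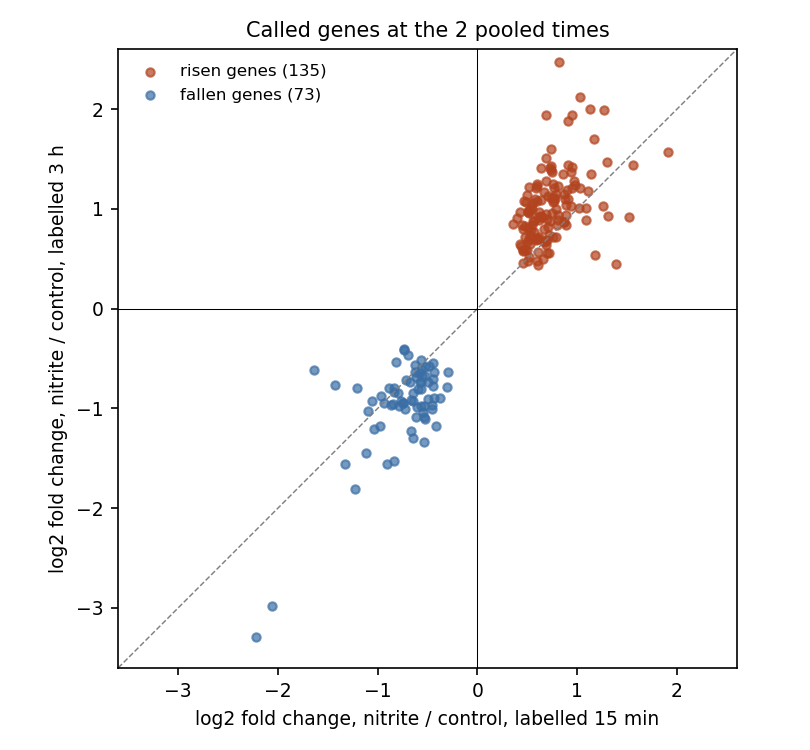
Log2 fold change of nitrite over control in the libraries labelled 3 h (vertical) against those labelled 15 min (horizontal) for the 208 called genes, with a dashed line of equality. All points have the same sign on both axes, which their choice by the pooled effect favours. Above the line lie 110 of the 135 rises, and the same count was not made over all genes tested.

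The libraries of 24 h took no part in the early comparison, although they come from the same flasks, and the early calls were read again there. At that time 39.8% of 11763 genes tested were called, 21.1% higher and 18.7% lower with nitrite. Without scaling the balance turned, with 1261 genes higher and 4418 lower. Of the early rises, 133 were tested and 117 (88.0%) were also higher at 24 h past the test, with a median log2 fold change of 1.33, and 106 were further from 0 than in the early comparison. Of the early falls, 70 were tested and 30 (42.9%) were also lower past the test, with a median of -0.52. Among the 70, 30 lay further below 0 than in the early comparison, and 14 lay above 0. In this main fit of the 24 h libraries no early call was called in the opposite direction. With DESeq2 at 24 h 2 early falls were, and with a replicate block also 2. Without nitrite 24 h number 1 it was 1 fall, and without nitrite 24 h number 3 it was 2. Without scaling at 24 h, 99 of the 133 rises (74.4%) and 43 of the 70 falls (61.4%) were called alike, and 2 rises and 1 fall in the opposite direction. The difference between rises and falls was not tested. Seen from 24 h, the shared genes were 4.71% of the rises and 1.36% of the falls of that time. Among the larger set of flask-sum calls, 599 of 798 rises (75.1%) and 148 of 428 falls (34.6%) were called alike at 24 h, and 11 and 14 in the opposite direction.

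Cre03.g211297 stood at 50.6, 52.8 and 37.1 CPM in the nitrite libraries of 24 h and 6.51, 4.48 and 7.43 CPM in the controls, a log2 rise of 2.93 (SE 0.20, edgeR adjusted p = 3.47e-07). Cre12.g517700 (436, 454 and 426 CPM with nitrite, 122, 127 and 155 CPM without) and Cre05.g232150 (2100, 1770 and 1610 CPM with nitrite, 422, 423 and 633 CPM without) were also higher past the test. Cre03.g155350 (1.67) passed too, as did the 4 glyoxylate and acetate loci that rose over flask sums (0.75 to 1.47). Of the other list loci that rose over flask sums, Cre06.g296750 (0.75) and Cre16.g688550 (0.81) passed. Cre10.g445000 (0.51) did not pass, and Cre04.g223100 and Cre09.g396000 were not tested at 24 h. Of the falls, Cre08.g362700 was also lower at 24 h past the test, at 2.09, 1.44 and 1.18 CPM with nitrite and 3.25, 2.98 and 2.79 CPM without (-0.95, SE 0.31, edgeR adjusted p = 0.0247). So were 3 list loci that fell over flask sums, Cre02.g080700 (-0.82), Cre10.g436050 (-0.83) and Cre14.g615350 (-1.62, SE 0.53, edgeR adjusted p = 0.0465). Cre14.g615350 stood at 4.48, 3.16 and 3.14 CPM with nitrite and 14.9, 14.3 and 3.83 CPM without, so 1 control library lay within the nitrite range. Of other such loci, Cre02.g120100 (-1.77) and Cre09.g386750 (0.47) did not pass, and Cre09.g410800 and Cre12.g514850 were not tested at 24 h. The chromosome 5 pair lay on the other side of 0 at 24 h. Cre05.g238400 stood at 49.1, 15.1 and 6.15 CPM with nitrite and 3.37, 5.33 and 3.60 CPM without (2.49, SE 0.89, edgeR adjusted p = 0.086), and Cre05.g238450 at 15.5, 8.49 and 3.79 CPM with nitrite and 3.14, 4.69 and 3.95 CPM without (1.22, SE 0.47, edgeR adjusted p = 0.0735). Cre08.g372100, the called chaperone locus, was at 16.9, 16.5 and 15.7 CPM with nitrite and 13.9, 19.3 and 21.4 CPM without, and did not pass. The 4 tubulin loci, lower early, had positive values of 0.26 to 0.85 at 24 h, and none passed.

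**Figure D5:**
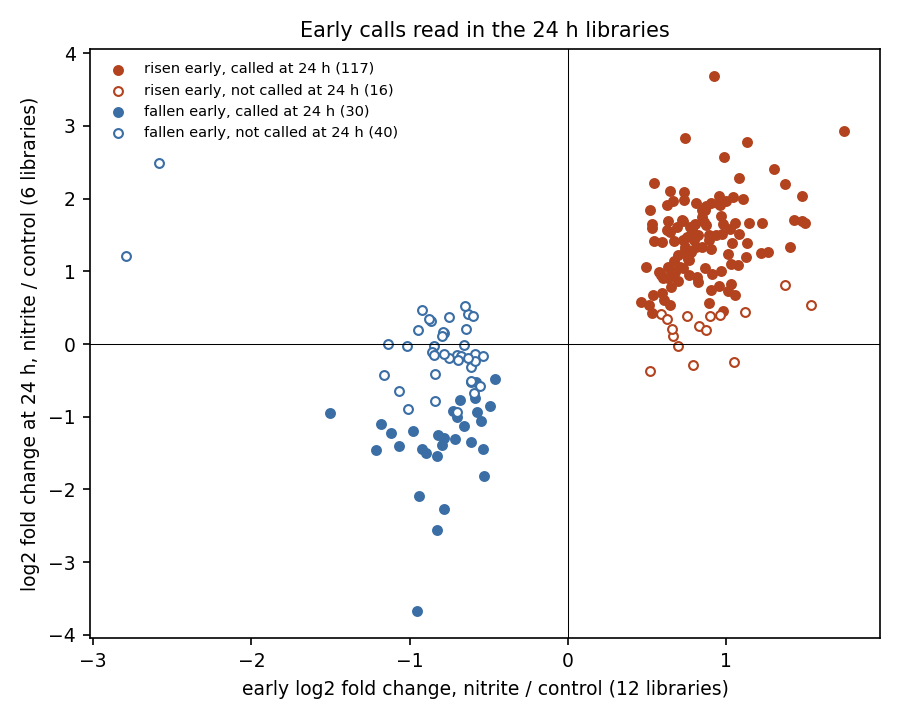
Log2 fold change of nitrite over control at 24 h (vertical) against the early one (horizontal) for the 203 called genes tested at both, filled where called at 24 h. Early rises lie mostly above 0 at 24 h (117 of 133 called). Early falls lie mostly below 0, with 14 of 70 above it, and the 2 points at the upper left are the chromosome 5 pair.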

How the data were processed

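Stranded libraries of polyadenylated RNA were made after extraction with a kit for plants, per the labels' protocols. The submitters' processing notes name TopHat2 2.0.13, an aligner, and HTSeq, a read counter. The sources used here give neither options nor genome build nor strand setting. Raw counts per gene were deposited by the authors in 1 table per library of 17766 features. The 5 summary lines of each table were left out of totals and tests: reads with more than 1 alignment made up 16.7% to 36.5% of all reads, reads outside genes 0.892% to 1.67% and ambiguous reads 0.0597% to 0.406%. The count of reads limits the precision of low genes.

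The 12 early libraries were filtered with filterByExpr by arm (minimum count 10; 5028 features removed), scaled by TMM and fitted in edgeR 4.0.16 (R 4.3.3, robust quasi-likelihood) with 1 mean per arm, leaving 10 residual degrees of freedom. P-values were adjusted by Benjamini-Hochberg over all tested features, with a threshold of 0.05. SE is the log2 fold change over the root of F. The 24 h libraries were fitted alone. Flask sums added both early libraries of a flask. DESeq2 1.42.0 and limma 3.58.1 (voom) served as alternatives. The fits were run on simulated counts with known changes, drawn independently for each library. The simulation held no flask effect and no exchanged labels, so it cannot judge the fits on those points. P-values over libraries treat the 2 libraries of a flask as separate. In limma their correlation was estimated at -0.277, or -0.23 with a time term. All pairs of libraries in a group differed by more than sampling noise. A RefSeq locus tag was found for 17738 of the 17741 nuclear features. The comparison, lists, rules and alternatives were chosen with earlier results of these data known. Named genes are the 2 largest rises and falls without overlap and of mean log2 CPM of at least 1, tested members of the nitrate and nitric oxide lists, and called members of other lists; other list members and genes were named after their values were seen.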

Additional observations from a re-analysis of the deposited data

Results flagged for a closer look

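Reads that fall on overlapping genes, and so belong to no gene in the tables, were more frequent with nitrite. They made up 0.166% to 0.406% of all reads in the 6 nitrite libraries and 0.0597% to 0.222% in the 6 control libraries. Summed by flask the share was 0.286%, 0.281% and 0.304% with nitrite and 0.179%, 0.12% and 0.0852% without (exact permutation test over flasks, two-sided p = 0.1, the smallest that 3 against 3 allows). At 24 h it was 0.265% to 0.439% in the nitrite libraries and 0.115% to 0.184% in the control libraries. Which genes these reads come from cannot be read from counts per gene.

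The share of reads with more than 1 alignment was 36.5% in control 3 h number 3, far from the other control libraries. Cre12.g549550, a tubulin-list locus, had its highest control level, 271 CPM, in that same library. Cre08.g362700 stood at 7.61 CPM in nitrite 15 min number 1, away from the other nitrite libraries at 3.18 to 3.88 CPM. These are 3 of 76 groups of 6 libraries examined, and chance flags about 1 group in 20.

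Cre05.g238400 was lower in all nitrite libraries of the early times than in any control library, and higher in all 3 nitrite libraries of 24 h than in any control library of that time, by 2.49 on the log2 scale. The difference between these effects was not tested.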

How the results depend on the processing

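The early count of 208 genes became 680 with DESeq2, 1200 with voom and an estimated correlation within flasks (1189 with a time term, added after seeing the data), 343 with a time term and 798 with all 18 libraries in the fit. It became 5 without scaling, 1294 with flask sums and 21 with unscaled flask sums (added later), 0 with the 15 min libraries alone and 5 with the 3 h libraries alone. Without the 3 libraries that stand apart it was 5, or 695 with a time term (added later). With single libraries or flasks left out it ran from 4 (without nitrite flask 2) to 294 (without nitrite 15 min number 1). With flask sums (added later) it was 496, 179 and 575 without nitrite flask 1, 2 and 3, and 3207, 245 and 1907 without control flask 1, 2 and 3. Relative log expression scaling, both other filters and plain voom (241 calls) kept it within 1.5 times. The correlation within flasks used with voom was negative, at -0.277, or -0.23 with a time term. The 1200 calls therefore do not measure an allowance for libraries of a flask being alike. A replicate block gave 20 calls, and 46 with a time term as well. Same-numbered flasks of the arms did not deviate together (correlations -0.011, -0.106 and -0.042), so the number was not taken as a pairing. Within an arm, deviations from the group means were also compared between the 3 h and 15 min libraries of 1 number. For numbers 1, 2 and 3 they correlated at -0.498, -0.786 and -0.422 with nitrite, and at 0.412, 0.017 and 0.401 without. Flask sums rest on the number marking the flask, which was not tested. The difference between times had 38 calls without the 3 libraries that stand apart and 0 in the other settings. At 24 h, 53% of calls were higher with nitrite, and 22.2% without scaling. No named gene was called in opposite directions. Depth limits genes such as those of the nitrate and nitrite list, where most had too few reads to test.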

Other observations

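A small group of very abundant transcripts held most of the reads. The 114 genes with a mean level of at least 10 log2 CPM, a bound chosen after their values were seen, took 64.0% to 73.8% of gene reads in the nitrite libraries (median 67.1%) and 61.8% to 82.7% in the control libraries (median 71.6%), the highest share being in control 3 h number 3. Of these 114 genes, 108 lay below 0 in the early comparison, with a median log2 fold change of -0.37, and 0 were called by edgeR (lowest adjusted p 0.0563). Over flask sums 1 of them rose and 0 fell. The median was -0.06 at 15 min and -0.62 at 3 h. These medians by time rest on the labels of the nitrite libraries that each sat with the other time. They would differ if those labels were exchanged. The part of control 3 h number 3 in the early values of these 114 genes was not tested. At 24 h 104 of the 114 lay above 0, with a median of 0.31.

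The gene with the largest early difference that was not called was Cre04.g220850, with a log2 difference of 2.61 (SE 0.81, edgeR adjusted p = 0.105). It stood at 119 and 22.2 CPM in both early libraries of nitrite flask 1, at 3.24 to 8.41 CPM in the other nitrite libraries and at 3.15 to 6.79 CPM in the control libraries. Cre16.g674179, at -1.83 over libraries (adjusted p = 0.0654), was called over flask sums (adjusted p = 6.27e-05). Its nitrite libraries held 1.05 to 5.19 CPM and its control libraries 3.07 to 19.9 CPM.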
